A study of Mus musculus with 8 samples.

Results

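The entries described here are Rfam families counted in small-RNA libraries of mouse liver, after the best known housekeeping families had been left out by name. Rfam is a collection of RNA families, each built from related sequences of many species. Ids beginning with RF were taken, except listed ids of rRNA, tRNA, spliceosomal RNA, Y RNA, vault RNA, signal recognition particle RNA and the like. Related ids outside that list stayed in, among them bacterial and archaeal rRNA, selenocysteine tRNA and a Y RNA-like entry. An entry was kept when its value was above 0 in at least 4 of the 8 libraries. Of 807 Rfam entries, 787 were left by name and 451 passed this minimum, among 3920 entries of all kinds. The members were thus selected on measured values, their CPM being above 0 in at least 4 libraries of either genotype, and their presence is a description and was not tested.

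The study compared liver of Snd1 knockout (KO) mice with that of wild-type (WT) mice, with 4 biological replicates of each genotype. All mice were males of the C57BL/6N strain, 8 to 12 weeks of age, fed until collection around noon, and the left liver lobe was used. In the KO mice the first exon of Snd1 had been removed in the germ line, so that the deletion was carried by all cells of the body. The line came from 129/Sv embryonic stem cells and a CAG-Cre deleter and had been backcrossed to C57BL/6N, and the WT mice were littermates from heterozygous pairs. Total RNA of 18 to 30 bases was sequenced, so the mRNA of Snd1 could not be checked in these libraries.

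Snd1, also named Tudor-SN, is an RNA-binding protein with staphylococcal nuclease-like domains and a Tudor domain. It is known from the RNA-induced silencing complex and for cleaving certain miRNAs. Small nucleolar RNAs (snoRNAs) guide the modification of other RNAs in the nucleolus. Box C/D snoRNAs guide methylation of the ribose and box H/ACA snoRNAs guide pseudouridylation, mostly of rRNA, while the related small Cajal body RNAs (scaRNAs) guide both kinds of modification on spliceosomal RNAs. A few, such as U3, take part in cutting the rRNA precursor instead. Most vertebrate snoRNAs are released from introns of host genes, and pieces of them in the size range of miRNAs are commonly found in small-RNA libraries.

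By number of entries the snoRNAs and scaRNAs were a large group, and by tags they were not. There were 88 box C/D snoRNAs, 45 box H/ACA snoRNAs, 15 scaRNAs and 18 further snoRNA names, together 166 of 451 entries. The 18 further names were not assigned to a group of species. They held 5.70% of the tags of the members, and 1.66% without U3. The 104 miRNA families of animals held 84.2% of the tags and the 83 families of bacteria or archaea held 8.83%. The other entries were 34 of mixed kinds, 25 snoRNAs named from archaea, fungi, plants or protozoa, 16 viral elements, 12 plant miRNA families and 11 domains of long non-coding RNAs. The set is therefore not mainly snoRNA fragments when tags are counted, and it is called the remaining Rfam entries below.

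The sequences of 6 box C/D snoRNAs are shown, 4 whose tags were low in KO replicate 4 and 2 whose tags were not (Snord99 and Snord61), as described further on. They are annotated transcripts of GENCODE vM21 on GRCm38, with the C box (TGATGA) within the first 20 bases and the D box (CTGA) within the last 15 bases in capitals, each searched on the sense strand only. Snord104 lies at chr11:106500993-106501062 on the plus strand, with no host gene in the annotation. Snord66 lies at chr16:20684239-20684313 on the plus strand and overlaps an annotated exon of Eif4g1. Snord59a lies at chr10:128084143-128084216 on the plus strand in an intron of Atp5b. Snord64 lies at chr7:59978808-59978874 on the minus strand and overlaps an annotated exon of Gm38393. Snord99 lies at chr4:132310691-132310764 on the plus strand and overlaps an annotated exon of the snoRNA host gene Snhg12. Snord61 lies at chrX:57391449-57391519 on the minus strand in an intron of Rbmx.
Snord104: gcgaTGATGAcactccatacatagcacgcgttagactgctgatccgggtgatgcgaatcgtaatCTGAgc
Snord66: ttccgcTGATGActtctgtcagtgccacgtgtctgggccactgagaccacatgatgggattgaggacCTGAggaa
Snord59a: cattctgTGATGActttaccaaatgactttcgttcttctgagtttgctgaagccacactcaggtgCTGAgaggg
Snord64: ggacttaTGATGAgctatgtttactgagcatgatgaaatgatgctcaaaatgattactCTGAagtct
Snord99: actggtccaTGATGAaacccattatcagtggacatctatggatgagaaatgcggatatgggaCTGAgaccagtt
Snord61: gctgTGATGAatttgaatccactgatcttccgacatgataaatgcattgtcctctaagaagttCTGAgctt

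By symbol, 54 of the 88 box C/D entries were matched to 70 annotated genes, 25 of the 45 box H/ACA entries to 26 genes and 5 of the 15 scaRNA entries to 6 genes. Both boxes were present at these places in 42 of 65 matched box C/D genes other than U3 (64.6%) and in 68 of all 98 Snord genes of the annotation (69.4%). Of the 65 genes, 30 lay in an intron of a host gene (46.2%) and 32 overlapped an annotated exon of one (49.2%). An Rfam entry can take tags of several near-identical gene copies, and which copy a tag came from is not known.

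Mature miRNAs are shown for 7 animal families on which the results turn, since these families are counted both as Rfam entries and as known miRNA arms. They are RefSeq sequences of GRCm38.p6, with the seed (bases 2 to 8) in capitals. No 2 of them share a seed. miR-30a-5p lies on chromosome 1, miR-192-5p on chromosome 19, miR-101a-3p on chromosome 4, miR-203-3p on chromosome 12, miR-223-3p on chromosome X, and miR-21a-5p and miR-22-3p on chromosome 11.
mmu-miR-30a-5p: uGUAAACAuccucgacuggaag
mmu-miR-192-5p: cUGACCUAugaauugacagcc
mmu-miR-101a-3p: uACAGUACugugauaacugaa
mmu-miR-203-3p: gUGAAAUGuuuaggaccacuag
mmu-miR-21a-5p: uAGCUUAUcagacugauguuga
mmu-miR-223-3p: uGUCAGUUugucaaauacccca
mmu-miR-22-3p: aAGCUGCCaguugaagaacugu

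Values are tags per 1000000 tags of the library (CPM), and values of 4 libraries are given in the order of replicates 1 to 4. The libraries held between 16223610 and 27526162 tags, so that 1 tag was worth 0.0363 to 0.0616 CPM. Markers of hepatocytes, miR-122-5p and miR-192-5p, summed to 230175 to 359082 CPM in WT and to 247524 to 374103 CPM in KO, and all 13 markers of liver cell types that were examined were detected. The file of KO replicate 1 lists no genomic classes, while its other values are on the same scale. Whether its tags were assigned to entries in the same way as those of the other libraries was not tested.

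The remaining Rfam entries together made up 64671, 55920, 54596 and 55016 CPM in WT and 45948, 58772, 64926 and 49016 CPM in KO. The means were 57551 ± 4779 CPM (SD, n = 4) in WT and 54666 ± 8757 CPM (SD, n = 4) in KO, a difference of -2885 CPM that was smaller than either SD. Without KO replicate 1 the difference was 20.7 CPM, and without KO replicate 3 it was -6305 CPM. The genotypes overlapped, with the highest and the lowest sum both in KO libraries.

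**Figure D1:**
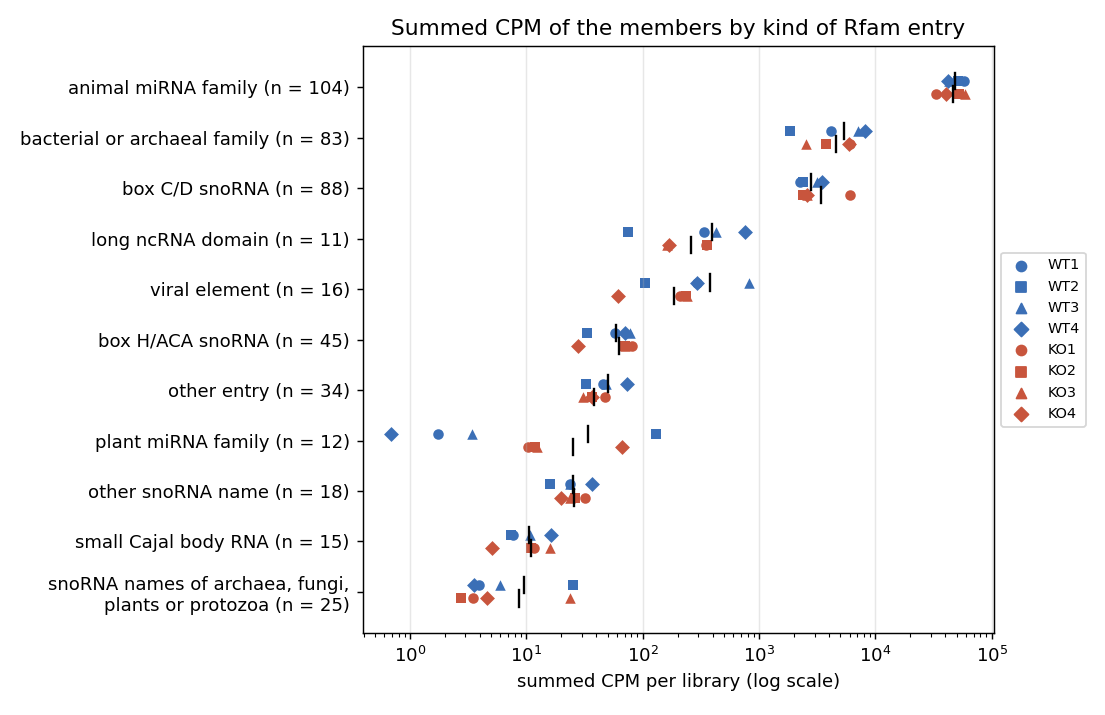
Summed CPM of each class of remaining Rfam entries in each library on a log axis, with 1 symbol for each library and short lines at the genotype means. The animal miRNA families lie between 33114 and 59250 CPM in every library, far above the other classes, and the 2 genotypes overlap in all classes.

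Most entries were rare. The mean was at least 1000 CPM for 14 entries, at least 100 CPM for 34, at least 10 CPM for 75 and at least 1 CPM for 165, whereas 286 entries had a mean under 1 CPM and 115 a mean under 0.1 CPM. All 8 libraries held 257 of the entries, and 66, 41, 41 and 46 entries were found in 7, 6, 5 and 4 libraries. Just inside the minimum, the highest value of the 46 entries seen in 4 libraries had a median of 0.14 CPM. Just outside it, the highest value of the 63 entries seen in 3 libraries had a median of 0.09 CPM. One of those left out was snoR114, with 0.09 CPM in KO replicate 1, 0.46 CPM in KO replicate 3, 1.86 CPM in KO replicate 4 and 0 CPM in the other libraries. Another was snoR2/U65, at 0.05, 0.31 and 0.70 CPM in the same 3 KO libraries. The lowest members, mir-235 and the pseudoknot of the upstream pseudoknot domain, reached at most 0.06 and 0.05 CPM in any library, which is a single tag.

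No remaining Rfam entry differed between the genotypes by the test used, and the data do not show that they are alike. With limma, 0 of 451 members had an adjusted p under 0.05, the same as the 0.0% of all 1649 features fitted, and the lowest adjusted p was 0.986. At an unadjusted p under 0.05 there were 13 members (2.88%), 5 with KO above WT and 8 with KO below, beside 4.06% of all features, 1.76% above and 2.30% below. The 4 KO values lay wholly above or wholly below the 4 WT values in 12 members (2.66%), beside 3.09% of all features. KO lay above in 4 of them and below in 8, beside 1.09% and 2.00% of all features. For 3 of the 12 (snoR20a, Z103 and mir-328) the minimum of 4 libraries was met through 1 genotype only, which fixed both the lack of overlap and its direction. snoR20a and Z103 are also among the 5 with an unadjusted p under 0.05 and KO above WT. Of the 451 members, 167 had a positive and 284 a negative log2 fold change. The median log2 fold change of the members, KO relative to WT on the log2(CPM + 1) scale, was -0.04, and that of all features was -0.03. Other scalings of the libraries moved the latter by 0.01. In simulated data of this size, changes were planted only in features with a mean of at least 4 CPM. There the same test recovered 31 to 42% of 2-fold changes and 88 to 94% of 4-fold changes. All 200 changes were planted at once, which eases the adjustment, so these shares do not hold for a lone change. In the real libraries, mir-22 had a log2 fold change of -1.99 with an adjusted p of 0.986. A 2-fold change of an entry could thus easily be missed, and a 4-fold change could be missed as well. For the 286 members with a mean under 1 CPM the recovery was not simulated.

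Pooling the tags of the 4 libraries of a genotype, which takes counting error as the whole error, called 158 of 451 members, 63 above WT and 95 below, beside 41.1% of all features. Such calls compare 2 pools of reads and carry no spread between mice.

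The most abundant entry was the mir-122 family, the main miRNA of hepatocytes. It was at 19900, 18643, 14248 and 8266 CPM in WT and at 7344, 18992, 22844 and 14217 CPM in KO. WT replicate 4 and KO replicate 1 were the lowest libraries of their genotypes, and the log2 fold change was 0.01 ± 0.39 (SE). The known arm miR-122-5p was at 206141 to 334039 CPM in WT and 224542 to 351742 CPM in KO, and there the 2 low libraries did not stand apart.

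The mir-30 family, whose members are found in most tissues, came next, at 3806, 1874, 5687 and 8479 CPM in WT and 9777, 2603, 4886 and 6364 CPM in KO. Here WT replicate 4 and KO replicate 1 were the highest libraries of their genotypes, and the log2 fold change was 0.30 ± 0.51 (SE). The mir-192/215 family, known from liver and gut epithelium, was at 5837, 4582, 3622 and 4653 CPM in WT and 2574, 4608, 5082 and 3993 CPM in KO, with a log2 fold change of -0.23 ± 0.29 (SE). The genotypes overlapped in both families.

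For mir-451, a family of red blood cells, the values were 6521, 4157, 2528 and 3446 CPM in WT and 2413, 5294, 4429 and 1118 CPM in KO, and the log2 fold change was -0.47 ± 0.49 (SE). The summed erythroid markers miR-451a, miR-144-3p and miR-486a-5p went from 8088 to 17396 CPM in WT and from 7362 to 15234 CPM in KO. Their part in the spread of mir-451 was not tested. mir-126, a family of endothelial cells, was at 2295, 2994, 996 and 1336 CPM in WT and 846, 3559, 2588 and 1040 CPM in KO, with a log2 fold change of -0.04 ± 0.52 (SE). Its direction turned under all 3 other scalings.

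**Figure D2:**
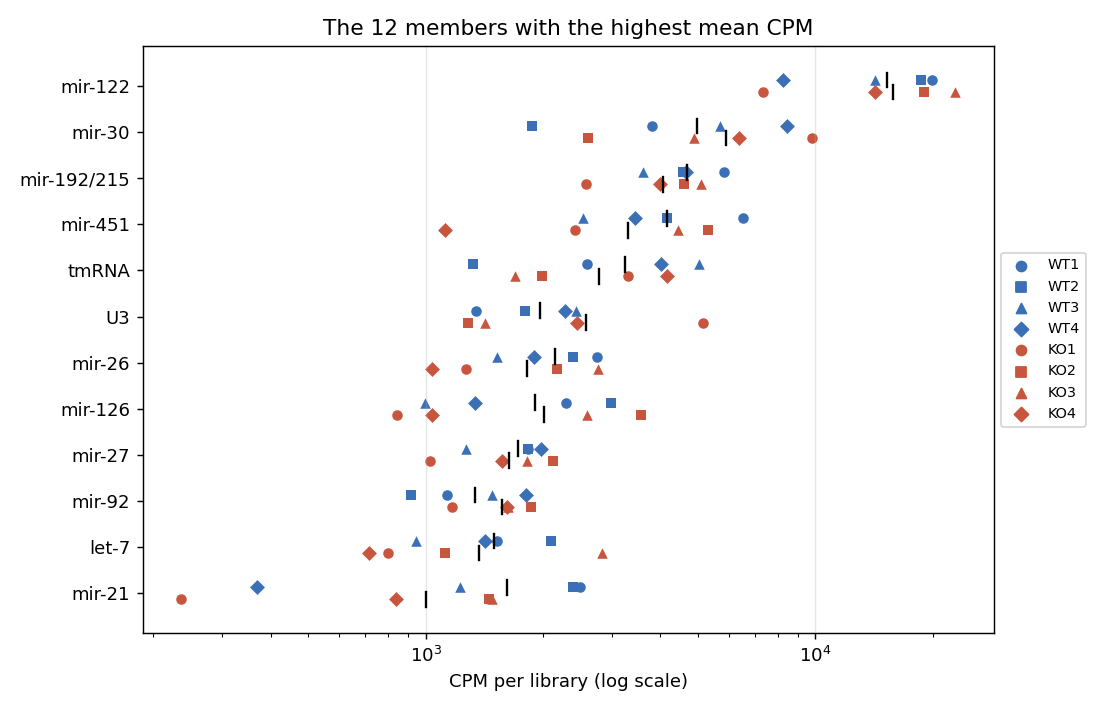
CPM of the 12 most abundant remaining Rfam entries in each library on a log axis, with 1 symbol for each library and short lines at the means of WT and KO. WT and KO points overlap in all 12 entries, and the mir-122 family spans 7344 to 22844 CPM.

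Among the other abundant miRNA families, mir-21 was at 2494, 2384, 1228 and 369 CPM in WT and at 236, 1453, 1476 and 840 CPM in KO, with a log2 fold change of -0.66 ± 0.71 (SE). WT replicate 4 and KO replicate 1 were again the lowest. The log2 fold changes of mir-26, mir-27, mir-92 and let-7 were -0.32, -0.11, 0.26 and -0.30, with standard errors of 0.37, 0.31, 0.31 and 0.45. Over the 12 most abundant entries the standard errors ran from 0.29 to 0.71, and all 12 entries overlapped between genotypes. Of the 104 animal miRNA families, 37 had a positive and 67 a negative log2 fold change, beside 167 and 284 of all 451 members. Known mouse arms were matched by name to 86 of the 104, and families such as bantam and mir-2 had none. The median of these families was -0.05, and 0 were called. An unadjusted p under 0.05 was found in 2 of the 104, both with KO below WT. Over all features the share was 4.06%, with 2.3% below and 1.76% above.

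KO values of 4 of the 104 animal families lay wholly below their WT values and those of 0 wholly above. Over all features the shares were 2.0% below and 1.09% above. For mir-328, which is counted among the 4, the direction was fixed by the choice of members. The most abundant of the 4 was mir-23, a family encoded together with mir-27 and mir-24. It was at 1199, 1288, 1217 and 1395 CPM in WT and 1013, 1131, 848 and 983 CPM in KO. The log2 fold change was -0.36 ± 0.26 (SE), with an unadjusted p of 0.185 and an adjusted p of 0.986. Its known arm miR-23b-3p was at 4520, 4737, 4544 and 4990 CPM in WT and 3718, 3565, 3283 and 4027 CPM in KO, which also did not overlap. The arm miR-23a-3p did overlap, at 1923, 2224, 2114 and 2237 CPM in WT and 1462, 1938, 1449 and 1626 CPM in KO. Of its 4 known arms 0 were called.

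mir-223, a family of neutrophils and other myeloid cells, was at 14.1, 14.9, 17.5 and 15.1 CPM in WT and 7.97, 10.9, 11.5 and 8.04 CPM in KO. Every KO library lay below every WT library, the log2 fold change was -0.64 ± 0.31 (SE), and the adjusted p was 0.986. The known arm miR-223-3p was at 62.4, 96.4, 111 and 112 CPM in WT and 53.9, 49.0, 45.8 and 65.4 CPM in KO, where KO replicate 4 overlapped WT replicate 1. The 5 leukocyte markers, miR-223-3p among them, summed to 131 to 556 CPM in WT and 418 to 581 CPM in KO. The sum overlapped between genotypes and hides opposite orders of the means. miR-150-5p had 192 ± 134 CPM in WT and 381 ± 81.5 CPM in KO (SD, n = 4), with WT replicate 1 at 9.62 CPM. By contrast miR-142a-3p had 65.1 ± 35.6 and 42.5 ± 22.1 CPM, miR-142a-5p 24.7 ± 12.4 and 14.02 ± 6.53 CPM, and miR-223-3p 95.4 ± 23.2 and 53.5 ± 8.58 CPM. miR-155-5p was near even, with 12.9 ± 1.61 and 11.9 ± 4.96 CPM. The part of leukocytes in the result was not tested. In bulk tissue, fewer cells of a type and less RNA per cell cannot be told apart.

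mir-425, encoded together with miR-191, was at 11.5, 9.60, 16.0 and 16.1 CPM in WT and 8.29, 6.68, 9.59 and 7.42 CPM in KO. Its log2 fold change was -0.65 ± 0.33 (SE), and the adjusted p was 0.986. The highest KO value, 9.59 CPM, was just below the lowest WT value, 9.60 CPM, a gap of less than 1 tag. Its known arm miR-425-5p was at 406 to 712 CPM in WT and 349 to 472 CPM in KO, with overlap, and miR-425-3p overlapped as well. mir-328 was present in all WT libraries, at 0.04 to 0.18 CPM, and in none of the KO libraries. It met the minimum of 4 libraries through the WT libraries alone, so its direction was fixed by the choice of members and is no result. These are 1 to 3 tags a library. Its known arm miR-328-3p was at 346 to 3506 CPM in WT and 1011 to 2831 CPM in KO, with overlap.

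mir-22 had the most negative log2 fold change of all 451 members. It was at 40.8, 3.36, 44.8 and 37.0 CPM in WT and 3.64, 5.78, 4.02 and 7.09 CPM in KO. WT replicate 2 lay below every KO library, and the other 3 WT libraries lay far above them. The log2 fold change was -1.99 ± 0.69 (SE), with an unadjusted p of 0.0158 and an adjusted p of 0.986. Without WT replicate 2 it was -2.80, with an adjusted p of 0.0382, the only member called in any fit of the mice. The known arm miR-22-3p, abundant in liver, was at 38815, 48072, 29826 and 35156 CPM in WT and 23231, 32960, 35932 and 26286 CPM in KO, with overlap and a log2 fold change of -0.36 ± 0.22 (SE). mir-22 was named after its values had been seen.

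**Figure D3:**
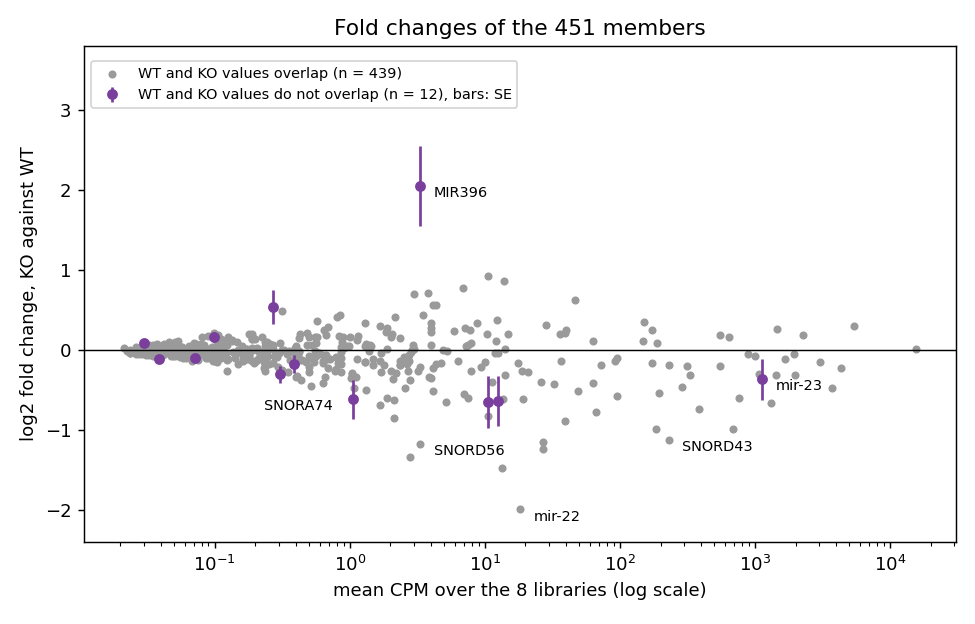
Log2 fold change (KO relative to WT on the log2(CPM + 1) scale) of each remaining Rfam entry against its mean CPM on a log axis, with bars of 1 SE for the 12 entries whose genotypes do not overlap. 8 of 451 entries lie at an absolute log2 fold change of at least 1, with mir-22 lowest at -1.99 and the plant family MIR396 highest at 2.05.

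The tags of a miRNA family in Rfam were then set against the tags of its known arms, for the 40 families with a mean of at least 10 CPM and known arms in the files. This ratio does not depend on the depth of a library. For mir-23 it was stable, at 17.3 to 20.4 Rfam tags per 100 tags of known arms in all libraries. In 10 of the 40 families, however, WT replicate 4 and KO replicate 1 both lay below the other 6 libraries. For this ratio, no other pair of libraries did so in more than 5 families. For the Rfam levels in CPM, KO replicates 1 and 4 both lay below the other 6 libraries in 11 of the families, and WT replicate 4 and KO replicate 1 in 8. These families were chosen after their values had been seen, and the count is a description.

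For mir-101 the ratio was 34.8 in WT replicate 4 and 29.2 in KO replicate 1, where the remaining 6 libraries had 155 to 210. For mir-203, a family of epithelia, the pair had 4.95 and 5.68 and the rest 55.1 to 71.5. mir-21 had 1.37 and 1.42 in the pair and 4.07 to 5.60 elsewhere. The gaps were several-fold in all 3 families. mir-143, a family of smooth muscle and mesenchymal cells, had the widest gap, at 0.162 and 0.0859 against 2.42 to 3.54. Smaller gaps were seen for mir-122, at 3.62 and 3.24 against 5.37 to 6.98, and for mir-378, at 5.22 and 3.95 against 8.09 to 8.96. The remaining 4 families were mir-320, mir-486, mir-132 and mir-874. The known arm miR-203-3p did not share the pattern in level, with 478 CPM in WT replicate 4 and 367 CPM in KO replicate 1, within the 311 to 792 CPM of the other libraries.

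**Figure D4:**
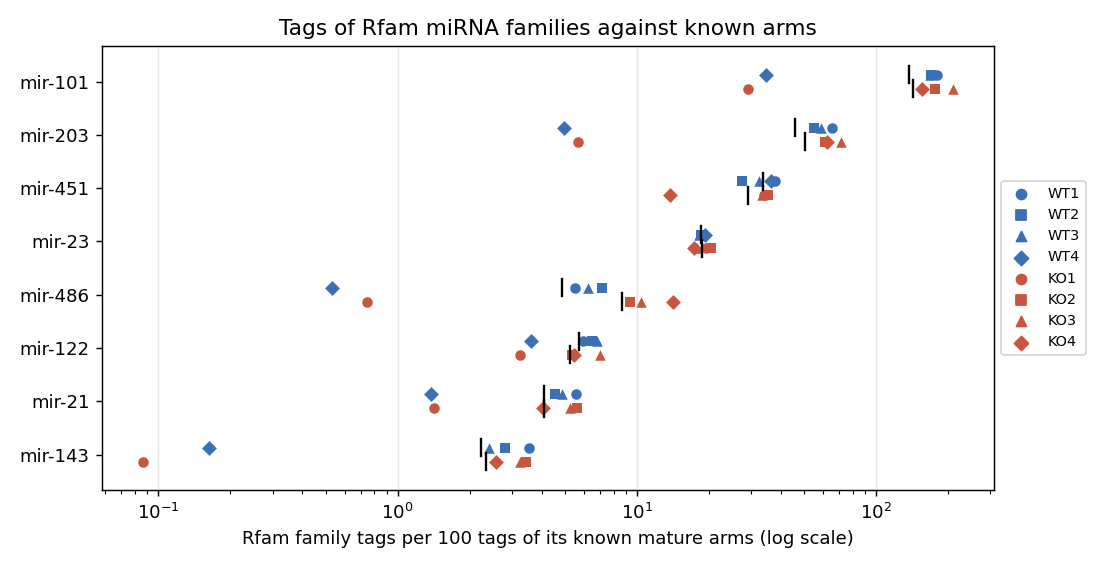
Rfam tags per 100 tags of known arms for miRNA families in each library on a log axis, with 1 symbol for each library and short lines at the genotype means. For mir-101, WT replicate 4 and KO replicate 1 lie at 34.8 and 29.2 and the others between 155 and 210, while for mir-23 all 8 lie between 17.3 and 20.4.

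Among the box C/D snoRNAs, U3 was by far the most abundant. U3 is needed for cutting the precursor of the small ribosomal subunit RNA. It was at 1347, 1803, 2424 and 2274 CPM in WT and 5146, 1282, 1424 and 2440 CPM in KO. KO replicate 1 lay far above the other 7 libraries, the genotypes overlapped, and the log2 fold change of 0.19 ± 0.44 (SE) turned to -0.22 without that library. The summed rRNA entries were also highest in KO replicate 1, at 7613 CPM against 2026 to 5235 CPM in the other libraries. Their part in the U3 value was not tested.

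The other rRNA processing RNAs were much rarer. SNORD14 (U14), which both guides methylation and takes part in rRNA cutting, was at 10.8, 8.37, 31.2 and 24.2 CPM in WT and 33.8, 13.04, 7.73 and 12.3 CPM in KO. SNORA73 (U17) was at 1.15 to 4.01 CPM in WT and 0.83 to 2.72 CPM in KO. Of 9 entries of this kind 0 were called, 3 had a positive and 6 a negative log2 fold change, and the median was -0.04.

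After U3, the most abundant box C/D snoRNAs were SNORD104 and SNORD43, both guides of rRNA methylation. SNORD104, whose sequence is printed above, was at 267, 160, 299 and 342 CPM in WT and 380, 414, 420 and 17.4 CPM in KO. SNORD43 was at 346, 165, 115 and 286 CPM in WT and 101, 423, 405 and 3.90 CPM in KO. In both, KO replicate 4 lay far below the 7 other libraries. The log2 fold changes were -0.46 ± 0.90 and -1.12 ± 1.20 (SE), and without KO replicate 4 they were 0.65 and 0.31.

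Low values of KO replicate 4 ran through many snoRNAs and scaRNAs, but not through all. Without U3 they summed to 977, 628, 838 and 1307 CPM in WT and to 1017, 1193, 1272 and 205 CPM in KO. The KO mean minus the WT mean was -16.0 CPM with all libraries and 223 CPM without KO replicate 4. Among the 66 box C/D, box H/ACA and scaRNA entries with a mean of at least 1 CPM, KO replicate 4 was the lowest of the 8 libraries in 40, and WT replicate 2 came next with 14. In 23 entries it held less than 25% of the median of the other 7 libraries, which was the case for 0 to 2 entries in each other library. Relative to the median of the 8 libraries for each entry, the median entry stood at 37.2% in KO replicate 4 and at 71.5 to 141% in the others.

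Among the 46 box C/D entries of this level, 18 were under 25% and 28 were not. SNORD59 was at 0.08 CPM in KO replicate 4 and 5.70 CPM or more in the others. SNORD64, the only snoRNA of the imprinted Snurf-Snrpn region among the members, was at 4.89, 1.99, 2.03 and 4.11 CPM in WT and at 2.17, 5.12, 5.22 and 0.08 CPM in KO. SNORD66 was at 4.10 CPM in KO replicate 4 and 13.4 CPM or more in the others. A single tag of KO replicate 4 is worth 0.0414 CPM, so SNORD59 and SNORD64 were seen there with 2 tags each. By contrast, SNORD99 was at 19.1 CPM in KO replicate 4 beside a median of 19.2 CPM in the others. SNORD61 was at 5.88 CPM beside 6.07 CPM, and SNORD50 at 14.3 CPM beside 8.55 CPM. The snoRNAs of Nop56 also parted, with SNORD57 at 11.02 CPM in KO replicate 4 beside a median of 14.4 CPM in the others. SNORD110 was at 17.7, 12.8, 17.6 and 19.0 CPM in WT and 16.4, 21.98, 1.47 and 0.66 CPM in KO, so that it was low in KO replicates 3 and 4.

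The matched genes of the box C/D entries under 25% had a median length of 71 bases (66 to 109 bases, 11 entries matched), and those of the others a median of 80 bases (68 to 215.2 bases, 17 entries matched). The C and D boxes printed above are held by Snord104, Snord66, Snord59a and Snord64, which were low in that library, and by Snord99 and Snord61, which were not. These snoRNAs were chosen for printing and all hold both boxes, so the boxes of low and other entries were not compared. KO replicate 4 held 24130669 tags, within the range of the other libraries. Its summed rRNA entries (2026 CPM) and its tRNA entry (440 CPM) were the lowest of the 8 libraries, and those of WT replicate 2 were close, at 2166 and 444 CPM. Their part in the low snoRNA values was not tested. SNORD56, SNORD59, SNORD66, SNORD99, SNORD61, SNORD50, SNORD57 and SNORD110 were named after their values had been seen.

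**Figure D5:**
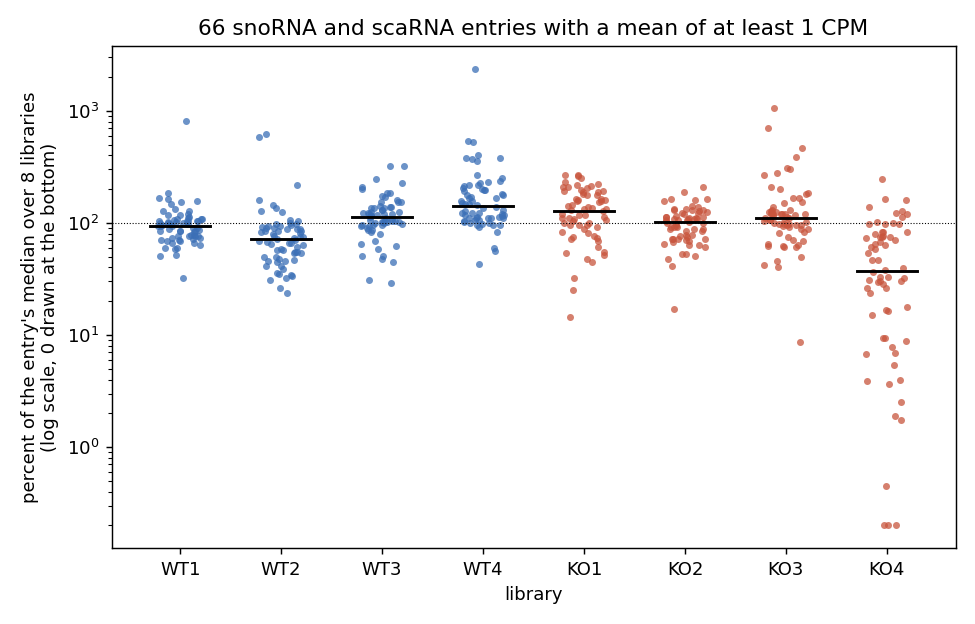
Level of each of the 66 snoRNA and scaRNA entries with a mean of at least 1 CPM, as percent of its median over the 8 libraries on a log axis, 1 column of points for each library and a line at its median, with values of 0 drawn at the bottom. The median entry stands at 37.2% in KO replicate 4 and at 71.5 to 141% in the other libraries.

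Of the 88 box C/D entries, 0 were called, 25 had a positive and 63 a negative log2 fold change, and the median was -0.11. Without KO replicate 4 there were 41 positive and 47 negative values with a median of -0.0025. An unadjusted p under 0.05 was found in 4 of the 88 with all libraries, 1 with KO above and 3 with KO below, beside 4.06% of all features. SNORD31, a snoRNA of the Snhg1 host gene, was at 0, 0.08, 0.06 and 0 CPM in WT and 0.18, 0.11, 0.19 and 0.17 CPM in KO. SNORD28, of the same host gene, was at 0.61, 0.42, 0.37 and 0.37 CPM in WT and 0.18, 0.25, 0.12 and 0.12 CPM in KO. The groups did not overlap in either snoRNA and lay in opposite order, with log2 fold changes of 0.17 ± 0.05 and -0.30 ± 0.10 (SE), unadjusted p of 0.00958 and 0.0131 and adjusted p of 0.986. These values are 0 to about 15 tags a library. Of the 6 Snhg1 snoRNAs among the members, 2 had a positive and 4 a negative log2 fold change, and without KO replicate 4 it was 3 and 3. SNORD30, also of Snhg1, was at 2.22 to 18.8 CPM in WT and 0.17 to 18.2 CPM in KO.

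SNORD56 overlapped, at 4.08, 3.06, 5.36 and 7.05 CPM in WT and 0.88, 3.92, 1.74 and 0.62 CPM in KO. The 6 members from the growth arrest host gene Gas5 had negative log2 fold changes, with a median of -0.38 and 0 calls. Without KO replicate 4, 2 of them were positive and the median was -0.17. The most abundant was SNORD74, at 50.04, 32.1, 35.8 and 86.1 CPM in WT and 31.2, 26.4, 41.6 and 11.2 CPM in KO, with a log2 fold change of -0.89 ± 0.48 (SE). In SNORD74 and SNORD44 the lowest value was again that of KO replicate 4. The 2 entries of Rpl13a, the family of SNORD32 and SNORD33 at 0.65 to 5.05 CPM and SNORD35 at 0.12 to 0.70 CPM, overlapped between genotypes.

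Box H/ACA snoRNAs were rarer still, with SNORA54 the most abundant at 14.2, 4.82, 13.8 and 16.4 CPM in WT and 13.9, 18.3, 14.6 and 3.65 CPM in KO. Its log2 fold change of -0.03 ± 0.53 (SE) changed sign under all 3 other scalings. SNORA74 (U19) was the only box H/ACA entry without overlap, at 1.39, 1.38, 1.29 and 1.82 CPM in WT and 0.88, 0.84, 0.46 and 0.33 CPM in KO. All 4 KO libraries lay below WT, with a log2 fold change of -0.61 ± 0.24 (SE), an unadjusted p of 0.0297 and an adjusted p of 0.986. Among the 45 entries 19 had a positive and 26 a negative log2 fold change, with a median of -0.01, and 0 were called. Without KO replicate 4 the median was 0.07, with 30 positive and 15 negative values.

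The 15 scaRNAs had 0 calls, 0 entries at an unadjusted p under 0.05 and a median log2 fold change of -0.02, which was 0.0068 without KO replicate 4. scaRNA 18 was at 0.41, 0.61, 0.43 and 0.43 CPM in WT and 0.32, 0.25, 0.27 and 0.37 CPM in KO. The groups did not overlap, and the log2 fold change was -0.17 ± 0.12 (SE). scaRNA 3, the most abundant, was at 0.99 to 3.05 CPM in WT and 1.49 to 2.69 CPM in KO, with a log2 fold change of 0.20 ± 0.33 (SE). scaRNA 13 was at 1.22, 0.42, 1.42 and 1.92 CPM in WT and 1.75, 3.31, 3.29 and 0 CPM in KO, so that KO replicate 4 was at 0 where the other KO libraries were high.

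Of the 18 further snoRNA names, 2 did not overlap, both with all WT libraries at 0. They met the minimum of 4 libraries through the KO libraries alone, so their direction was fixed by the choice of members and is no result. snoR20a was at 0.28, 0.07, 0.31 and 1.49 CPM in KO, and Z103 at 0.05, 0.07, 0.04 and 0.08 CPM in KO. Z103 is at 1 or 2 tags a library, below the limit of 3 tags (0.109 to 0.185 CPM) that a count of 0 allows. Only KO replicates 1, 3 and 4 of snoR20a passed that limit. The most abundant of this group were Z40 and R442. Z40 was at 7.38 to 27.0 CPM in WT and 13.9, 16.2, 16.6 and 0.91 CPM in KO, with KO replicate 4 again the lowest.

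Families known from bacteria, plants or viruses and not from the mouse were also listed. The transfer-messenger RNA, which in bacteria frees stalled ribosomes, was at 2593, 1326, 5026 and 4016 CPM in WT and 3304, 1993, 1694 and 4170 CPM in KO. The genotypes overlapped, with a log2 fold change of -0.14 ± 0.45 (SE). Bacterial small subunit rRNA was at 240 to 2007 CPM in WT and 349 to 1270 CPM in KO. All 83 families of bacteria or archaea together ranged from 1836 to 8151 CPM in WT and from 2511 to 6048 CPM in KO, and 0 were called. Which molecules these tags came from was not tested.

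Plant miRNA families, 12 in number, summed to 1.75, 131, 3.39 and 0.69 CPM in WT and 10.3, 11.8, 12.4 and 67.0 CPM in KO. WT replicate 2 and KO replicate 4 were far above the other libraries of their genotypes. mir-166 was at 45.5 CPM in WT replicate 2 and 26.2 CPM in KO replicate 4 and at 0.21 to 5.74 CPM in the others. MIR398, named after its values had been seen, was at 20.5 CPM in WT replicate 2 and at 1.36 CPM or less in the others. Within this group stood the entry with the lowest p of all members, MIR396, at 0, 2.22, 0.18 and 0.21 CPM in WT and 3.32, 3.27, 4.25 and 13.1 CPM in KO. Every KO library was above every WT library, and the log2 fold change was 2.05 ± 0.50 (SE), with an unadjusted p of 0.00188 and an adjusted p of 0.986. The source of these plant sequences was not tested.

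Viral elements, 16 in number, were led by the HIV primer binding site, at 202, 45.7, 621 and 191 CPM in WT and 119, 166, 119 and 29.6 CPM in KO. In retroviruses this site binds a host tRNA to start reverse transcription. WT replicate 3 lay far above the other libraries, and it was also highest for the packaging signal of the Mason-Pfizer monkey virus, at 200 CPM against 28.8 to 120 CPM in the others. The log2 fold change of the primer binding site was -0.99 ± 0.76 (SE). The tRNA entry was at 919 CPM in WT replicate 3, within the 440 to 1182 CPM of the other libraries. The major splice donor of HIV type 1 did not overlap, at 0.08 to 0.16 CPM in WT and 0 to 0.05 CPM in KO, which is 0 to 3 tags a library.

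Among long non-coding RNA domains, 1 entry was at more than 1 CPM. It is the MALAT1-associated small cytoplasmic RNA, a tRNA-like piece cut from the end of the nuclear MALAT1 transcript and shared in this entry with MEN beta. It was at 335, 74.7, 423 and 754 CPM in WT and 352, 358, 161 and 169 CPM in KO, with overlap and a log2 fold change of -0.31 ± 0.64 (SE). The other 10 domains were at most 0.83 CPM in any library. Of 11 domains 6 had a positive and 5 a negative log2 fold change, and of 20 cis-regulatory elements 10 and 10, with 0 calls in both lists.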

How the data were processed

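Small-RNA libraries of 4 WT and 4 Snd1 KO livers were examined, 1 deposited table for each. RNA of 18 to 30 bases was cut from a gel by the authors, and tags were aligned with Bowtie to GRCm38 per the labels (the version, and how a tag matching several classes was assigned, are not given in the sources used here). The deposited values are CPM, headed TPM, per 1000000 tags of the library and not divided by length. Repeated rows were summed and absent entries set to 0. A linear model with a trended variance prior (limma 3.58.1, run under R 4.3.3) was fitted on log2(CPM + 1) over 1649 features (known miRNAs, piRNAs and Rfam entries above 0 in at least 4 libraries), with Benjamini-Hochberg adjustment and a threshold of 0.05. It was tested on simulated data with 200 changed features, all with a mean of at least 4 CPM. The simulated noise was drawn separately for each feature, with an SD averaged from its own and the median SD of all features. Changes of low entries are understated on this scale. Library totals were recovered as the number making values whole tags within 0.0051 CPM. These PCR reads carry no molecular identifiers, so tag limits cover counting error only.

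Members and lists were chosen with earlier results of these data known. Named entries were the 12 most abundant, the 12 with the lowest p whose genotypes do not overlap, up to 3 of each list, the 2 lowest, and 2 just outside the minimum; others are marked as named after their values were seen. The alternatives were 3 scalings, 2 pseudocounts, 2 filters, other feature sets, limma-voom, a robust fit, pooled tags, a replicate block and leaving out libraries. Sequences and positions are from GENCODE vM21 and RefSeq GRCm38.p6.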

Additional observations from a re-analysis of the deposited data

Results flagged for a closer look

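In 144 groups of 4 libraries (sums of lists and named entries, for each genotype), 18 had a highest or lowest library whose gap to the next one was above Dixon's critical value for 4 values. For normally distributed values chance alone flags about 1 in 20 groups, and groups that share entries are not independent. The CPM were used without a log and need not be normally distributed, so the rate for these groups is not known. WT replicate 2 and KO replicate 4 stood apart in 6 groups each, KO replicate 3 in 2, KO replicate 2 in 0 and the other libraries in 1 each.

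WT replicate 2 was the highest WT library for the sum of plant miRNA families at 130.58 CPM, for mir-166 at 45.49 CPM, for MIR167_1 at 21.56 CPM and for MIR396 at 2.22 CPM. It was also the highest for the sum of snoRNAs named from archaea, fungi, plants or protozoa at 25.15 CPM, and for 1 of them, the Aspergillus fumigatus snoRNA Afu_294, at 19.88 CPM, where the other WT libraries were at 0.73 to 1.42 CPM. KO replicate 4 was the highest KO library for the plant sum at 66.97 CPM, for mir-166 at 26.15 CPM, for MIR167_1 at 7.71 CPM and for MIR396 at 13.14 CPM. KO replicate 4 was the lowest KO library for SNORD104 at 17.36 CPM and for Z40 at 0.91 CPM.

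KO replicate 3 was the highest KO library for the sum of snoRNAs named from archaea, fungi, plants or protozoa at 23.98 CPM, and for sR41, 1 of these, at 7.15 CPM. KO replicate 1 was the highest KO library for the summed box C/D snoRNAs at 6037.93 CPM, of which U3 made up 5146 CPM. WT replicate 1 was the highest WT library for the sum of all members at 64670.93 CPM, WT replicate 4 for the sum of Snhg1 snoRNAs at 23.52 CPM, and WT replicate 3 for R442 at 11.03 CPM.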

How the results depend on the processing

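The limits are the spread of 4 mice a genotype and, for the 286 entries under 1 CPM, a few tags a library. Scaling by median ratios, to known miRNA tags or to Rfam tags moved the median of all features by 0.01 on the log2 scale each. The count of calls was 0 in every fit of the mice except without WT replicate 2, where it was 1 (mir-22), so that leaving out 1 library gave 0 to 1. Pooled tags gave 158. The count of entries without overlap was 12; it was 5 among entries of at least 1 CPM in at least 4 libraries, 17 to 29 with 1 library left out and 31 without WT replicate 4 and KO replicate 1 together (an alternative chosen after seeing the data), fewer libraries making overlap less likely. Leaving out KO replicate 4 for each list, and each library for the snoRNA sum, was also added after seeing the data. The median log2 fold change of the members stayed negative under all alternatives, at -0.06 to -0.01 with 1 library left out. edgeR and DESeq2 on counts were planned only for files of counts and were not run.

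Signs turned for SNORA54 (0.017 by median ratios, 0.0089 by known miRNA tags, 0.025 by Rfam tags, 0.12 pooled) and mir-126 (0.0091, 0.0098, 0.026 and 0.033), and with pooled tags for SNORD104 (0.28), SNORD43 (0.071) and mir-166 (-0.63). With 1 library left out, the log2 fold change went from -0.26 to 0.34 for mir-122, -0.10 to 0.64 for mir-30, -0.52 to 0.12 for tmRNA, -0.22 to 0.45 for U3, -0.40 to 0.29 for mir-126, -0.25 to 0.10 for mir-27, -0.86 to 0.65 for SNORD104, -1.83 to 0.31 for SNORD43, -0.39 to 0.42 for SNORA54, -0.56 to 0.28 for SNORD64, -1.24 to 0.11 for SNORD30, -0.60 to 0.027 for the SNORD32 and SNORD33 family, -0.97 to 0.14 for the MALAT1-associated RNA, -0.77 to 0.50 for Afu_294 and -0.90 to 0.17 for Z40. The cause was not tested. None of these was called in a fit of the mice.

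Same-numbered WT and KO libraries did not deviate together over all features (correlations of -0.40, 0.10, -0.42 and -0.18). They were not treated as pairs in the main fit, and whether same-numbered mice shared a litter or batch was not tested. A fit with the replicate block called 0 members, with a lowest adjusted p of 0.996.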
